A study of Homo sapiens with 54 samples.

Results

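The comparison is that of H1 human ESCs kept for 4 days with no FGF against H1 ESCs kept for 4 days with FGFC, a heat-stable chimeric protein built from fragments of FGF1 and FGF2. Its members are 12 of the 54 arrays of the series, chosen by the treatment in the sample titles, and they hold 6 of the 27 cultures, each measured on 2 arrays. H1 (WA01) is an established human ESC line. All cultures of this comparison were grown without feeder cells in Essential 6 Medium with 2 ng/mL of TGF-beta 1, to which 100 ng/mL of FGFC or no FGF was added for 4 days. There are 3 numbered experiments with 1 culture of each kind, at passage 49 in experiment 1, 59 in experiment 2 and 51 in experiment 3 by the titles, though another label gives some arrays of experiment 3 a different passage, and the pre-culture of experiment 2 is titled passage 49. For reference, 3 cultures with 100 ng/mL of bFGF (FGF2) for 4 days and 3 pre-cultures, kept in the same medium with 100 ng/mL of bFGF, were set beside them. The model is 1 cell line at 1 time point, and TGF-beta 1 was present in every group.

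FGF ligands bind receptor tyrosine kinases together with heparan sulfate and act mainly through the RAS and ERK cascade, which switches on its own feedback inhibitors of the Sprouty and DUSP families. In human ESCs this signal acts beside the TGF-beta, Activin and Nodal pathway to keep the cells undifferentiated. FGF and BMP signals also set, in the early embryo, the choice between neural and surface ectoderm.

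The level of each probe is given as the normalized signal, the log2 of the array signal minus the 75th percentile of its array, so that 0 is the level at that percentile. It is the mean of the 2 arrays of a culture. A probe was well above background when the scanner software marked it so, and this held for 57.1% to 77.1% of the probes on the FGFC arrays and for 59.6% to 66.5% on the no FGF arrays. The gap between the arms was not even, since in experiment 2 the FGFC arrays had 76.4% and 77.1% and the no FGF arrays 61.5% and 65.2%. In each experiment both cultures lay on 1 slide, where the FGFC arrays always took columns 1 and 2 and the no FGF arrays columns 3 and 4 of row 2. Arm and position thus cannot be told apart within the comparison. The bFGF culture of experiment 2 and the pre-cultures of experiments 2 and 3 lay at the no FGF positions of other slides. There CDH6, which is described below, was at -6.37, -5.54 and -5.49, against 3.06 to 3.23 without FGF. These values are of 1 gene with a large difference, and the part of position in the other calls was not tested. POU5F1, SOX2, NANOG and LIN28A, which mark pluripotent cells, were well above background on all 6 arrays of both arms. In bulk RNA, fewer cells of a kind and less RNA per cell cannot be told apart.

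Removal of FGF changed the profile on both sides. In limma's test over the 12 cultures, 4575 of 42405 probes (10.8%) passed an adjusted p of 0.05 between no FGF and FGFC. Of these, 2000 (4.72%) were higher without FGF, that is, held down by FGFC, and 2575 (6.07%) were lower, that is, held up by FGFC. With 1 probe for each of 19720 genes, 2894 genes passed (14.7%), with 1401 higher (7.1%) and 1493 lower (7.57%). Many changes were large, as 388 of the passing probes were 4-fold or more higher and 544 were 4-fold or more lower. Among the higher probes, 50 went from well above background on 0 FGFC arrays to all 6 no FGF arrays, and among the lower ones 116 did the reverse. In the design of 3 against 3 cultures, an exact permutation test of a single probe could not give a two-sided p under 0.1, and all adjusted p-values below are limma's, over all probes.

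**Figure D1:**
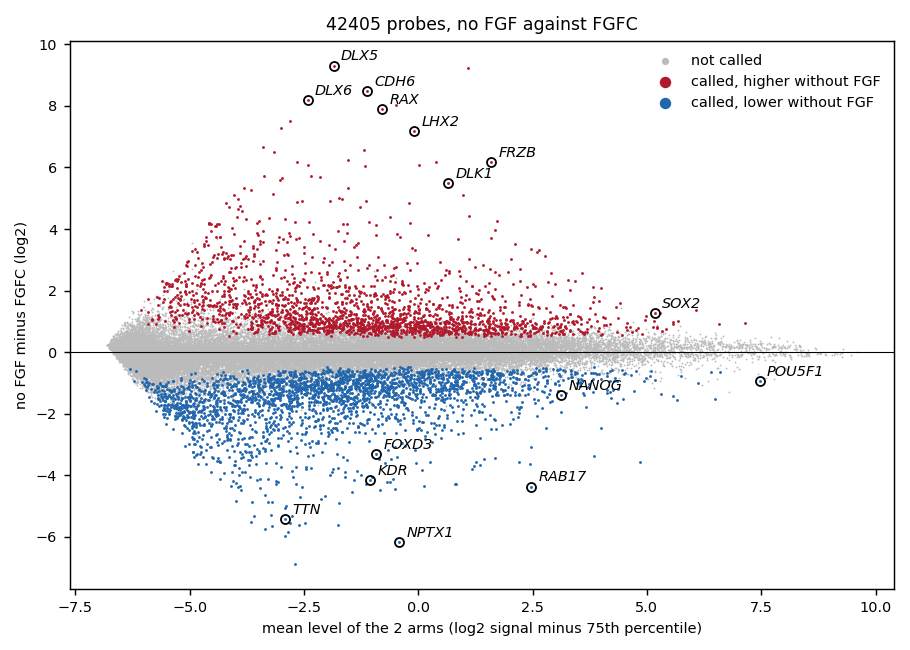
Difference between no FGF and FGFC (log2, vertical axis) against the mean level of the 2 arms (log2 signal minus the 75th percentile, horizontal axis) for 42405 probes, each point the mean of 3 cultures per arm, with 2000 probes that passed limma's test higher without FGF in red and 2575 lower in blue. Among the circled genes CDH6 reaches 8.48 and FRZB 6.16, while POU5F1, at the right, lies at -0.94, and for DLX5 and DLX6, not well above background with FGFC, the plotted height is a fitted value and not a measured size.

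CDH6, DLX5 and DLK1 were low in every culture with FGF and high in every culture without, and NPTX1 was the other way around. CDH6, a cadherin of early neural and kidney tissue, was at -5.76, -5.16 and -5.15 with FGFC in experiments 1, 2 and 3, and at 3.23, 3.06 and 3.08 without FGF. The 3 values without FGF lay close together, and the difference was 8.48 ± 0.29 (SE, adjusted p = 9.95e-08). Only 3 of the 6 FGFC arrays were well above background for CDH6. DLX5, a distal-less homeobox factor, was not well above background on any FGFC array and was at 3.08, 2.57 and 2.77 without FGF, at least 335-fold higher (adjusted p = 1.5e-07). DLK1, a membrane protein related to Notch ligands, was at -2.25, -1.88 and -2.14 with FGFC and at 2.24, 4.14 and 3.79 without FGF, so that the culture of experiment 1 rose less than the others. Its difference was 5.48 ± 0.38 (adjusted p = 7.95e-06). A second probe of DLK1, dimmer on average over the 12 cultures, gave 9.23. That probe was at -3.43, -3.44 and -3.72 with FGFC and at 4.54, 6.42 and 6.15 without FGF, there brighter than the first. It did not enter the ranking below, which takes 1 probe per gene. NPTX1, a neuronal pentraxin, was at 1.08, 3.89 and 3.05 with FGFC and at -3.82, -2.88 and -3.82 without FGF, a difference of -6.18 ± 0.90 (adjusted p = 0.00111). Its FGFC cultures were spread more widely than those of the other 3 genes, and the groups did not overlap.

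**Figure D2:**
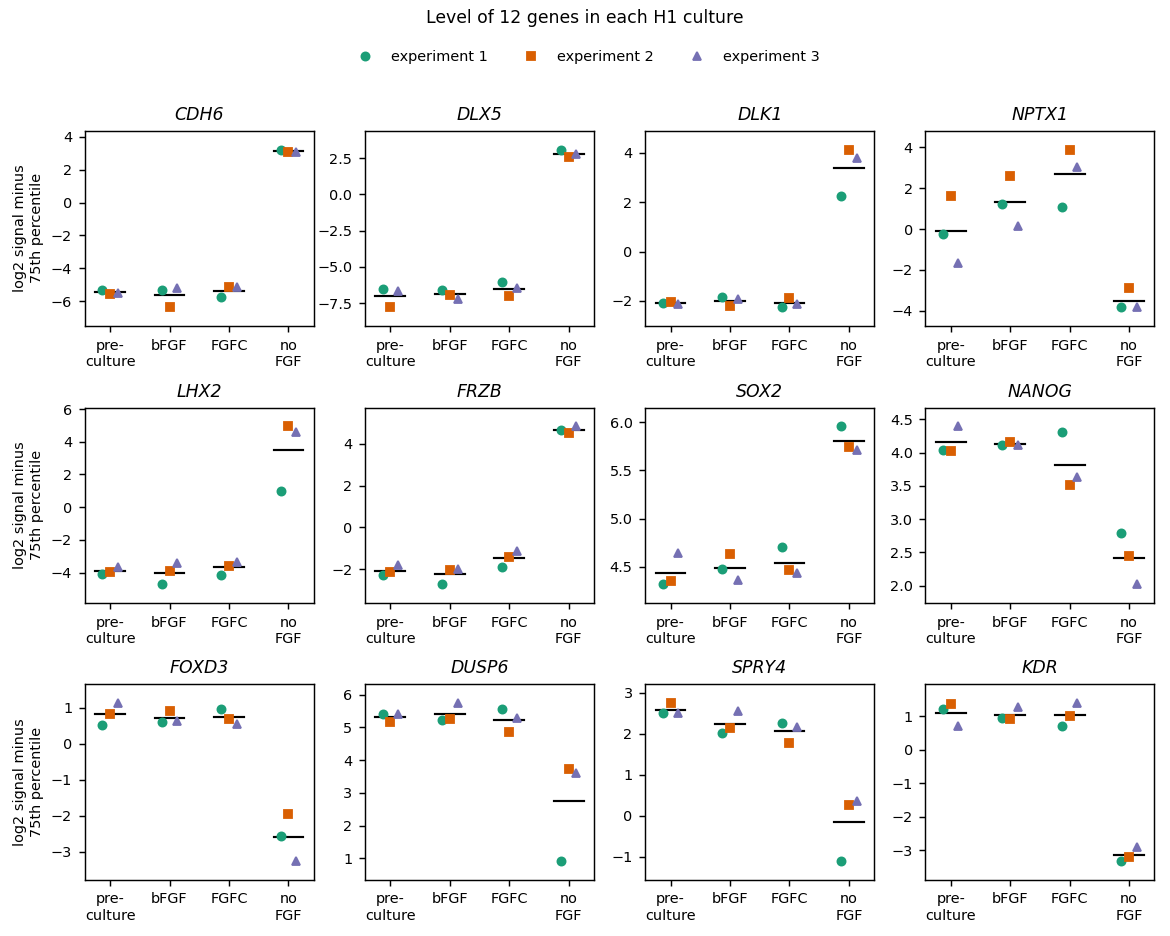
Normalized signal (log2 signal minus the 75th percentile of the array, vertical axis) of 12 genes in the pre-cultures and in the cultures with bFGF, FGFC and no FGF, with 1 point per culture (n = 3) and the bar at the mean. In each of the 12 panels the no FGF cultures stand apart from the other 9 cultures, and for LHX2, DUSP6 and SPRY4 the no FGF culture of experiment 1 stands apart from the other two.

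The genes that FGFC held down most were transcription factors, membrane, matrix and secreted proteins. By the fitted difference, among genes with the same sign in 3 of 3 experiments, the 12 rises that the naming rule took were those of DLX5, CDH6, DLX6, RAX, LIX1, LHX2, FEZF1, ERP27, VAX1, LMO1, FRZB and HAPLN1. For DLX5, DLX6, LIX1, ERP27 and VAX1 only a lower bound of the fold is known, so that the order of these genes, and whether each exceeds the next genes in rank, is not known. CDH6, RAX and FEZF1 were each well above background on only 3 of 6 FGFC arrays, so that their FGFC levels are less precise. With dim signals raised to the smallest signal marked as above background, their differences were 8.09, 7.70 and 6.19. DLX6, the chromosomal neighbour of DLX5, was at 2.05, 1.12 and 1.84 without FGF and not well above background on any FGFC array, at least 152-fold higher (adjusted p = 4.55e-07). RAX, a homeobox factor of the eye field, was at -4.75, -4.45 and -5.02 with FGFC and at 1.86, 3.78 and 3.82 without FGF. Its difference was 7.89 ± 0.45, and its second probe gave 6.25. LHX2, a LIM homeobox factor of forebrain and eye, was at -4.14, -3.58 and -3.32 with FGFC and at 0.99, 4.94 and 4.59 without FGF. The no FGF value of LHX2 in experiment 1 was thus well below the other two, though far above every FGFC culture. FEZF1, a zinc finger factor of the forebrain, was at -5.93, -2.95 and -4.50 with FGFC and at 2.12, 1.87 and 2.33 without FGF, and here the spread lay on the FGFC side. VAX1, a homeobox factor of the ventral forebrain, was at least 52.8-fold higher, LIX1 at least 92.1-fold and ERP27, a protein of the endoplasmic reticulum, at least 50.8-fold.

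Secreted and matrix genes were also among these rises. FRZB, a secreted WNT antagonist, was at -1.91, -1.41 and -1.15 with FGFC and at 4.68, 4.52 and 4.84 without FGF, a difference of 6.16 ± 0.25 (adjusted p = 3.25e-07). HAPLN1, which links hyaluronan to proteoglycans, was at -2.99, -3.01 and -3.08 with FGFC and at 3.12, 2.69 and 3.32 without FGF. LMO1, a LIM-only cofactor, rose by 6.16 ± 0.27. All 12 genes passed in every alternative run, including the fits without any 1 experiment, where their highest adjusted p was that of LHX2 without experiment 3 (0.03).

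The genes that FGFC held up most were of mixed function. The 12 falls that the rule took included those of NPTX1, FOXL2NB, TTN, IL17C, VWC2, RIPOR2, ONECUT1, ALKAL2, PDZD4, RAB17 and SYT4. RAB17, a small GTPase of epithelial membrane traffic, was well above background on all 6 arrays of both arms, at 4.83, 4.48 and 4.65 with FGFC and at 0.84, 0.63 and -0.64 without FGF. Its difference was -4.38 ± 0.34 (adjusted p = 1.44e-05), and its second probe gave -4.48. FOXL2NB (at least 27.8-fold lower), IL17C, an epithelial cytokine (24-fold), ALKAL2, a ligand of the receptor ALK (17.3-fold), SYT4, a synaptotagmin (16.8-fold), PDZD4 (14.6-fold) and VWC2, a secreted BMP antagonist (13.4-fold), were not well above background on any no FGF array, so that each fold is a lower bound and their order is not known. TTN, which encodes titin, fell by 5.43 at its brightest probe, and its other probes gave -1.19 and -2.0, well above background on 0 of 6 no FGF arrays. All 12 passed in every alternative run, with 0.0377 for NPTX1 without experiment 3 as the highest adjusted p of the fits without 1 experiment.

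The pluripotency genes split. Of 19 measured genes of the list, 8 fell and 4 rose without FGF, against 7.57% and 7.1% over all genes. FOXD3, a forkhead factor of pluripotent and neural crest cells, fell most, from 0.96, 0.68 and 0.56 with FGFC to -2.55, -1.96 and -3.25 without FGF, a difference of -3.32 ± 0.29 (adjusted p = 3.8e-05). DPPA2, a gene used by early pluripotent cells, went from 0.85, 0.20 and 0.18 to -1.16, -2.12 and -2.16. NANOG was at 4.31, 3.52 and 3.63 with FGFC and at 2.79, 2.45 and 2.02 without FGF, a difference of -1.40 ± 0.25 (adjusted p = 0.00391). POU5F1 (Oct-4) was at 8.24, 7.84 and 7.72 with FGFC and at 7.46, 6.83 and 6.70 without FGF, a difference of -0.94 ± 0.22 (adjusted p = 0.02), or 1.92-fold lower. TERF1, a telomere protein, fell by 1.42, ZSCAN10 by 0.94, TERT, the telomerase catalytic subunit, by 0.73 and L1TD1 by 0.66. On the other side, SOX2, which is shared by pluripotent and neural cells, rose from 4.71, 4.46 and 4.43 to 5.96, 5.75 and 5.72, a difference of 1.27 ± 0.16 (adjusted p = 0.00052). SALL4 rose by 0.76, LIN28A by 0.70 and LIN28B by 0.64. ZFP42 (Rex1) and DNMT3B differed by 0.06 and -0.03 and did not pass (adjusted p = 0.937 and 0.958).

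How firmly these calls stand differs. FOXD3, DPPA2 and SOX2 passed without any 1 experiment. The other 9 did not pass without experiment 2, with adjusted p-values from 0.0577 for NANOG to 0.381 for LIN28B, nor without experiment 3, with 0.106 for NANOG to 0.478 for LIN28B, and SALL4 (0.0836) and L1TD1 (0.101) did not without experiment 1. With experiment number as a block, LIN28A (adjusted p = 0.055) and LIN28B (0.0611) no longer passed. The number of passing list members was 10, 3 and 3 without experiments 1, 2 and 3, where 2285, 965 and 630 of all genes passed. All 12 of these genes moved in the same direction in 3 of 3 experiments.

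The promoters of genes on both sides are shown because NANOG and FOXD3 fell together with POU5F1 and against SOX2, while DLX6 went from background to a high level. The sequences are the 250 bases before the start site in RefSeq (GRCh38.p14), all on the plus strand, at chr12:7789152-7789401 for NANOG, chr1:63322317-63322566 for FOXD3 and chr7:97005303-97005552 for DLX6. Capitals mark the motifs found.
NANOG: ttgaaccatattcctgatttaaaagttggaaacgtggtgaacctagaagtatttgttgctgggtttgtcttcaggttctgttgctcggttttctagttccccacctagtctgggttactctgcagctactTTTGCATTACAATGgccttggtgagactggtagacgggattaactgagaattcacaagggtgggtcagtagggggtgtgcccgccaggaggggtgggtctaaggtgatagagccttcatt
FOXD3: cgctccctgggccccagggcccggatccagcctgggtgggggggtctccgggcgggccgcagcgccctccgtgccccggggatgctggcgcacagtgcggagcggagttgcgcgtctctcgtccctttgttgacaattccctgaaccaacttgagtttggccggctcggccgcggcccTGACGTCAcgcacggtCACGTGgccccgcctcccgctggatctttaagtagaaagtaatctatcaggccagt
DLX6: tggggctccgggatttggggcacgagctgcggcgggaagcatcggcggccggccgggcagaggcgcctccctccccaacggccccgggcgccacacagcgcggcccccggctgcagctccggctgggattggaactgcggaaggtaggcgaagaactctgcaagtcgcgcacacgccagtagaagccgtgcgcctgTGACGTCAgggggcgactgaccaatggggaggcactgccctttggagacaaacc
In NANOG the run of an octamer core and a SOX site begins 120 bases before the start. It is a composite of both sites, and the octamer core ATGCAAA lies within it on the other strand. On both strands, ATGCAAA was found in 3.94% of 35116 promoters of the same length, in 3.97% of those of genes higher and in 3.98% of those of genes lower without FGF, and the composite was found in 2 of the 35116. The cAMP response element TGACGTCA, in FOXD3 and DLX6, was held by 1.65% of all, 1.62% of the higher and 1.27% of the lower genes' promoters, the E-box CACGTG, in FOXD3, by 6.34%, 7.66% and 7.72%, and the ETS core CCGGAAG, in none of these, by 8.52%, 7.38% and 5.55%. A match is a description of the letters. Of the 118 genes named by the rule, 79 have an entry in the promoter table.

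FGF/ERK target genes fell in part, and by unlike amounts in the experiments. Of 19 measured genes of the list, 7 fell and 2 rose, against 7.57% and 7.1% over all genes. DUSP6, the phosphatase that inactivates ERK, was at 5.56, 4.85 and 5.27 with FGFC and at 0.92, 3.72 and 3.60 without FGF. The differences were thus -4.64 in experiment 1 against -1.13 and -1.67 in experiments 2 and 3, and the adjusted p was 0.0196 in all, 0.0714 without experiment 2 and 0.153 without experiment 3. SPRY4, a Sprouty feedback inhibitor, was at 2.26, 1.77 and 2.16 with FGFC and at -1.10, 0.26 and 0.35 without FGF, a difference of -2.23 ± 0.34 (adjusted p = 0.00157) that passed without any 1 experiment, while a dimmer probe of SPRY4 gave -0.39 and did not pass. IER3, DUSP5, MYC, ETV4 and PHLDA1 fell by 1.86, 1.79, 1.70, 1.30 and 1.21, and none of these 5 passed without experiment 3 (adjusted p = 0.074 to 0.23), nor did IER3 without experiment 1 (0.0749) or PHLDA1 without experiment 2 (0.0744). CCND1 (cyclin D1) rose by 0.81 and DUSP4 by 0.63, with adjusted p-values of 0.318 and 0.292 without experiment 2 and 0.342 and 0.485 without experiment 3. The other 10 genes did not pass, and among them SPRED1, SPRED2, SPRY1, SPRY2 and IL17RD were lower without FGF in experiment 1 and higher in experiments 2 and 3, and ETV5 gave -2.40, 0.59 and 0.00. IL17RD (Sef), a membrane inhibitor of FGF signals, gave differences of -1.47, 1.67 and 0.80. The list median was -0.92 in experiment 1, -0.0049 in experiment 2 and 0.0022 in experiment 3, beside -0.03, 0.11 and -0.04 over all genes. The count of passing genes was 9, 5 and 1 without experiments 1, 2 and 3.

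Of the FGF ligands 22.7% passed, and of the receptors and heparan sulfate carriers 23.5%, against 14.7% over all genes. FGF8, a ligand of the anterior neural ridge, was not well above background on any FGFC array and was at -2.94, -0.90 and -0.95 without FGF, at least 11.2-fold higher (adjusted p = 0.000745, and 0.0699 without experiment 3). FGF19, FGF20 and FGF13 fell by 1.65, 1.32 and 1.13, where FGF20 gave -0.42 under normexp and did not pass (adjusted p = 0.0656), FGF21 was at least 2.99-fold lower without FGF, where it was not well above background, and the other 17 of 22 ligands did not pass, FGF2 itself with a difference of -0.38. FGFR3 was at 1.65, 2.74 and 2.55 with FGFC and at 4.95, 3.84 and 4.19 without FGF, a rise of 2.01 ± 0.33 (adjusted p = 0.00244, and 0.0745 without experiment 3). GPC3, a glypican that carries heparan sulfate, rose by 2.08 ± 0.24 (adjusted p = 0.000264) in all fits, FGFRL1 rose by 0.87 and GPC4 fell by 0.72, and both calls were lost without experiment 2 (0.259 and 0.166) or 3 (0.193 and 0.34), that of GPC4 also without experiment 1 (0.0503). FGFR1, FGFR2 and FGFR4 gave 0.33, 0.53 and -0.45 and did not pass. Without experiments 1, 2 and 3 the counts were 3, 3 and 0 of all 22 ligands and 3, 2 and 1 of all 17 receptors and carriers. These counts can include genes that did not pass in the fit of all 12 cultures. FGF19, FGF20 and FGF13 did not pass without experiment 1 (adjusted p = 0.0585, 0.0559 and 0.0697 in limma). Of 15 immediate-early genes 2 rose and 1 fell (20% in all, against 14.7% over all genes). EGR1 rose by 1.36 and ATF3 fell by 1.15. EGR4 was at least 2.11-fold higher, though only 3 of 6 no FGF and 0 FGFC arrays were well above background. Its call was lost with the floor on dim signals (adjusted p = 0.0939) and without any 1 experiment (0.0524 to 0.0943). The list count was 0, 1 and 0 without experiments 1, 2 and 3.

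BMP pathway genes were on one side. Of 23 measured genes, 16 rose without FGF and 0 fell, against 7.1% and 7.57% over all genes, and the list median was 2.24, 1.59 and 2.23 in experiments 1, 2 and 3. Over the 3 experiments it was 2.08, also with genes below background in 1 arm at their bound. The ligands BMP4, BMP5, BMP7 and BMP2 rose by 3.34, 3.04, 2.85 and 2.08. BMP7 was at 0.00, -0.02 and 0.01 with FGFC and at 2.95, 3.01 and 2.56 without FGF (adjusted p = 8.17e-06). Of the direct target genes, ID4 was at -2.94, -2.30 and -2.61 with FGFC and at 2.82, 1.78 and 2.07 without FGF, ID1, ID2, ID3 and SMAD6 rose by 2.57, 2.60, 1.13 and 1.84, and MSX2, not well above background on any FGFC array, was at least 6.0-fold higher. Of the secreted antagonists in the list GREM1, FST and NOG rose, while VWC2, which is outside the list, was lower without FGF, as given above. GREM1 was at -5.04, -5.02 and -5.58 with FGFC and at -0.56, 1.33 and 0.74 without FGF, FST rose by 3.71 and NOG by 3.58. The receptors BMPR1A and BMPR2 gave 0.04 and -0.06 and did not pass, and BMPR1B was not well above background on any array of either arm. The count was 15, 14 and 10 without experiments 1, 2 and 3, and ID4, BMP7, FST and GREM1 passed in all alternatives run.

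In the Nodal pathway, which TGF-beta 1 in the medium also feeds, 4 of 21 genes rose and 3 fell (33.3%, against 14.7% over all genes). Among the genes that rose, LEFTY2 did so by 2.05 (1.05, 3.26 and 1.82 in the experiments), SMAD7 by 0.93 and TGFBR1 by 0.53. The ligand GDF3 fell by 1.49, the Nodal receptor ACVR1C by 1.63 and SKIL by 0.82, while NODAL and LEFTY1 gave -1.37 and -1.12 and did not pass. Of these falls, that of GDF3 passed without any 1 experiment. The calls of ACVR1C and SKIL were lost without experiment 2 (adjusted p = 0.112 and 0.132 in limma) or 3 (0.0501 and 0.114). Dimmer probes of ACVR1C, well above background on at most 2 arrays of an arm, gave -0.50 and -0.16 and did not pass. The count was 5, 2 and 2 without experiments 1, 2 and 3.

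Of 35 WNT pathway genes, 11 rose and 4 fell, against 7.1% and 7.57% over all genes. Receptors and nuclear factors were among those that rose. FZD5 was at 1.17, 1.12 and 1.36 with FGFC and at 4.19, 4.37 and 4.42 without FGF, a difference of 3.11 ± 0.15 (adjusted p = 7.62e-07). FZD8 rose by 3.73, FZD1 by 2.55, LEF1 by 4.17 and the ligand WNT3 by 1.87, and SP5, not well above background on any FGFC array, was at least 31.9-fold higher. The inhibitors DKK1 and FRZB rose by 4.32 and 6.16, whereas the feedback gene AXIN2 fell by 0.90 and NKD2 by 0.95, and FZD7 and FZD10 fell by 1.24 and 1.41. The count was 13, 8 and 7 without experiments 1, 2 and 3.

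Neural and surface ectoderm genes rose in the same cultures. Of 24 neuroectoderm genes 16 rose and 1, NPTX1, fell, against 7.1% and 7.57% over all genes. HESX1, a repressor of the anterior neural plate, was at -1.01, -1.89 and -1.82 with FGFC and at 3.47, 3.53 and 3.63 without FGF (5.12 ± 0.34, adjusted p = 5.4e-06). SIX3, an anterior homeobox factor, was at -4.16, -4.01 and -4.94 with FGFC and at 0.49, 0.60 and 0.49 without FGF. LHX5, NR2F2, FEZF2 and ZIC1 were not well above background on any FGFC array and were at least 23.4, 21.8, 14.5 and 6.3-fold higher. PAX6 and OTX2 rose by 5.67 and 2.52. SOX1, a neural progenitor factor, was well above background on 1 FGFC and 0 no FGF arrays. SOX3, NCAM1 and DCX, which mark neural progenitors and young neurons, gave -0.11, -0.16 and -0.70 and did not pass, and the neuronal cytoskeletal genes TUBB3 and MAP2 rose by 1.81 and 1.83. The summed linear signal of the list, as multiples of the 75th percentile, was 45.9 to 54.1 with FGFC and 83.9 to 141 without FGF, and the list count was 18, 11 and 11 without experiments 1, 2 and 3.

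Of 18 surface ectoderm and placode factors, 9 rose and 0 fell, against 7.1% and 7.57% over all genes. Beside DLX5 and DLX6 these were GRHL3, DLX4, KLF5 and TFAP2C, with differences of 4.38, 3.15, 3.03 and 2.57, and DLX3, TFAP2A and DLX2, which were not well above background on any FGFC array and were at least 8.42, 8.15 and 2.34-fold higher. GRHL3, an epidermal transcription factor, was at -3.38, -2.38 and -2.66 with FGFC and at 1.98, 1.15 and 1.58 without FGF (adjusted p = 5.25e-06). A dimmer probe of GRHL3 gave -0.58 and did not pass (adjusted p = 0.486), and was well above background on 2 FGFC and 0 no FGF arrays. TP63, a factor of the epidermal lineage, was well above background on 1 FGFC and 0 no FGF arrays. The summed signal of the list was 2.48 to 2.68 with FGFC and 13.4 to 21.1 without FGF, and 9, 9 and 7 genes passed without experiments 1, 2 and 3. Of 10 keratins 0 passed in limma (2 at an unadjusted p under 0.05), with 0.71 for KRT19 (adjusted p = 0.0584) and -0.58 for KRT18 (0.0842) nearest to it, and both passed under quantile normalization and normexp background correction.

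The other lineages gave fewer changes. Of 20 amnion and trophoblast genes 5 rose and 1 fell (30% in all, against 14.7% over all genes). GATA3 was not well above background on any FGFC array and was at -0.43, -2.48 and -1.47 without FGF, at least 17.4-fold higher, TBX3 at least 6.34-fold, and IGFBP3, VTCN1 and HEY1 rose by 2.09, 1.67 and 1.36. GABRP, a GABA-A receptor subunit of amnion, fell from -0.68, -0.93 and -0.54 to -4.49, -3.58 and -4.19. CDX2, CGA, ELF5, ITGB6 and PPARG were well above background on at most 1 of 12 arrays. The summed signal of this list was 3.97 to 4.20 with FGFC and 4.57 to 5.98 without FGF. Of 16 neural crest genes 4 rose and 2 fell (37.5% in all, against 14.7% over all genes). SOX5 was at least 8.71-fold higher, and PAX3, SOX9 and NGFR rose by 2.17, 1.61 and 1.12. ERBB3 fell by 0.94, a call lost without experiment 2 (adjusted p = 0.194) or 3 (0.237). Its other probes gave -0.33 and -0.87 and did not pass. ETS1 was at least 1.51-fold lower, a call lost under normexp (adjusted p = 0.157) and with the floor on dim signals (0.0871). The list count was 4, 3 and 1 without experiments 1, 2 and 3. SOX10 and SNAI2 did not pass, and the summed signal was 10.8 to 13.4 with FGFC and 11.4 to 14.1 without FGF.

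Of 20 mesendoderm and endoderm genes, 2 rose and 3 fell (25% in all, against 14.7% over all genes), and the defining factors TBXT, EOMES, MIXL1, FOXA1 and FOXA2 were not well above background on any of the 12 arrays. KDR, the VEGF receptor 2, was at 0.71, 1.01 and 1.38 with FGFC and at -3.31, -3.18 and -2.90 without FGF, a difference of -4.17 ± 0.23 (adjusted p = 1.87e-06). The chemokine receptor CXCR4 rose by 3.1 and PDGFRA by 2.95, while PDGFRB and MESP2 fell by 0.80 and 1.13. The summed signal was 4.27 to 5.06 with FGFC and 2.85 to 3.92 without FGF, and 4, 3 and 3 genes passed without experiments 1, 2 and 3. Of 20 cadherins and EMT regulators, 6 rose and 2 fell (40% in all, against 14.7% over all genes). CDH2 (N-cadherin) was at 1.87, 1.76 and 1.98 with FGFC and at 3.49, 4.74 and 4.06 without FGF, and CDH11 and ZEB2 rose by 2.76 and 3.15. CDH3 (P-cadherin) fell by 1.28 (adjusted p = 0.0778 and 0.104 without experiments 2 and 3), and CDH1 (E-cadherin) gave -0.28 and did not pass. Here 7, 3 and 4 genes passed without experiments 1, 2 and 3.

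Few genes of the cell cycle and HOX lists passed. Of 32 cell cycle genes only CDC6 passed (3.1%, against 14.7% over all genes) and 0 fell. CDC6 rose by 0.99 (adjusted p = 0.0127, and 0.0541 to 0.219 without 1 experiment). The 4 replication and S-phase genes PCNA, MCM2, MCM6 and CCNA2 gave 0.35, 0.61, 0.32 and 0.38 and did not pass. Of 38 HOX genes, 0 passed in limma's fit (3 at an unadjusted p under 0.05) or with quantile normalization or normexp, HOXA11 passed with the slide as a random block, and 22 were not well above background on any array. Of 24 genes of cholesterol synthesis, 3 rose and 2 fell (20.8% in all, against 14.7% over all genes). TM7SF2, INSIG1 and MVK rose by 1.17, 0.97 and 0.83, and SC5D was among the 2 genes that fell, by 0.89. The count was 5, 1 and 0 without experiments 1, 2 and 3. Of 22 genes of glycolysis, 5 fell and 0 rose (22.7% in all, against 14.7% over all genes). HK1, a hexokinase, was at 3.65, 3.05 and 3.29 with FGFC and at 2.34, 1.86 and 2.03 without FGF, and the glucose transporter SLC2A1, ALDOC, PFKP and PDK1 fell by 1.10, 1.16, 0.92 and 0.67. The count of passing genes was 3, 2 and 0 without experiments 1, 2 and 3. Of 20 collagens 3 passed (15%, against 14.7% over all genes), as COL6A1, COL6A2 and COL21A1 fell by 1.60, 1.36 and 1.18, and the count was 3, 0 and 0.

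**Figure D3:**
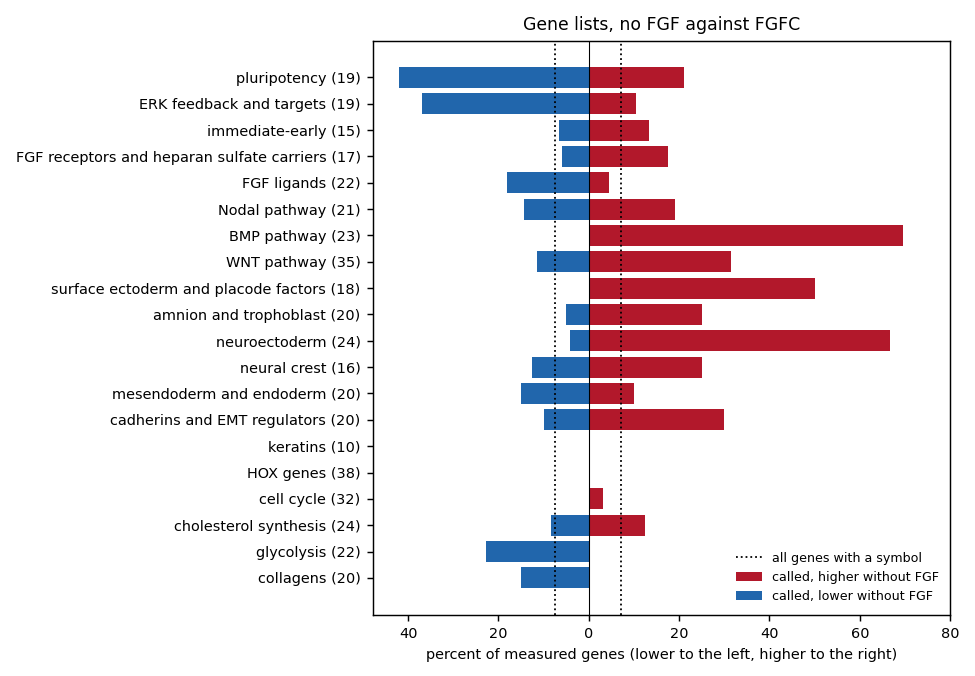
Share of the measured genes of 20 lists that passed limma's test higher (red, to the right) or lower (blue, to the left) without FGF than with FGFC, with the number of genes in brackets and dotted lines at the shares over all genes (7.1% and 7.57%). The BMP pathway (16 of 23 higher) and neuroectoderm (16 of 24 higher) reach farthest to the right, and pluripotency (8 of 19 lower) farthest to the left.

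Agreement between the experiments was high in sign and lower in size. Of the 4575 probes, 4568 had the same sign in 3 of 3 experiments, and the 7 exceptions were all in experiment 1, with no gene among them that the naming rule took. The cultures of the 2 arms did not overlap for 4556 of them, where 25.5% of all probes did not overlap. These shares follow in part from the test itself. Probes were therefore called from 2 experiments and read in the third. Of 974 probes called from experiments 1 and 2, 99.8% had the same sign in experiment 3 and 97.8% were 2-fold or more in that direction. Of 1480 called from experiments 1 and 3, 97.4% had the same sign in experiment 2 and 81.6% were 2-fold. Of 3840 called from experiments 2 and 3, 92.5% had the same sign in experiment 1 and 47.0% were 2-fold, with a median of 0.99 in place of 1.43 for the higher and of -0.91 in place of -1.53 for the lower probes. Over all probes the sign was shared by 71.1%, 63.8% and 55.9% in the same order.

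**Figure D4:**
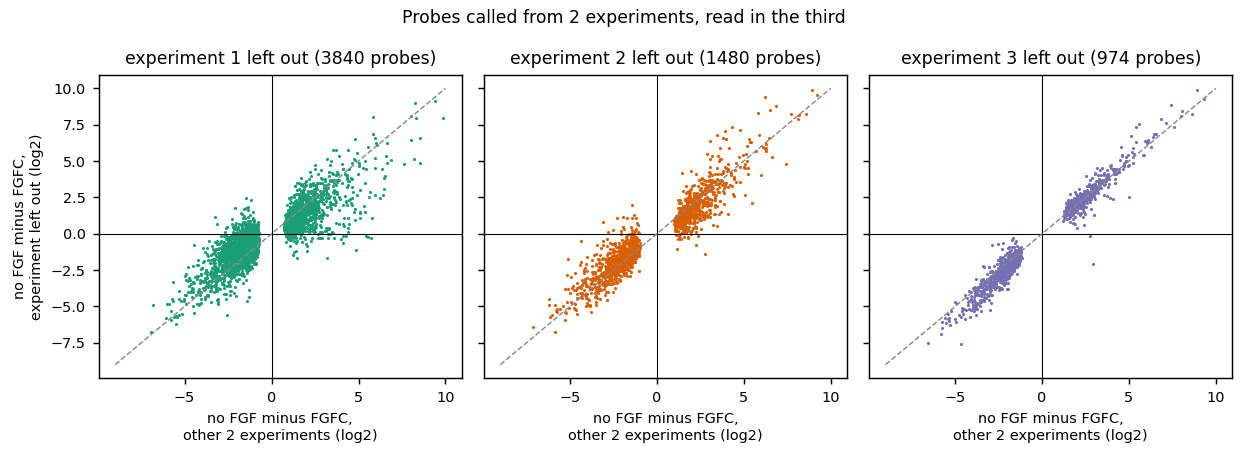
Difference between no FGF and FGFC (log2) in the experiment left out (vertical axis) against the difference fitted from the other 2 experiments (horizontal axis) for the probes called from those 2, with the dashed line at equal values. Points for experiment 3 (974 probes) follow the line, and those for experiment 1 (3840 probes) spread toward and across 0, with 92.5% on the same side.

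Experiment 1 stood apart from the other two. Across all probes the differences of experiments 2 and 3 had r = 0.684, those of experiments 1 and 3 r = 0.583 and those of 1 and 2 r = 0.387, and over the 24463 probes that had signal above background throughout at least 1 arm these were 0.909, 0.804 and 0.675. Probes of 1 array are not independent of each other. Within experiments 1, 2 and 3, 5090, 9150 and 6379 probes differed 2-fold or more, of which 2606, 4782 and 2219 were higher, and on the means 4019 did (9.48%), 1524 higher and 2495 lower. The lower share of probes above background on the no FGF than on the FGFC arrays of experiment 2 stands beside its larger count, and its part was not tested. By gene, the no FGF cultures of experiment 1 were lower than the other two in LHX2, RAX, SIX6, DLK1, FGF8, DUSP6 and SPRY4. SIX6, a homeobox factor of eye and forebrain, was at -3.86 without FGF in experiment 1 and at 1.29 and -0.11 in experiments 2 and 3, and its call (3.88, adjusted p = 0.0432) was lost without experiment 2 (0.375) or 3 (0.352). ZIC1 was at -4.94 without FGF in experiment 1 and at -1.85 and -1.99 in experiments 2 and 3. Differences were in turn larger in experiment 1 for FGFR3 (3.30 against 1.09 and 1.63) and for BMP4 (4.37 against 3.05 and 2.58).

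**Figure D5:**
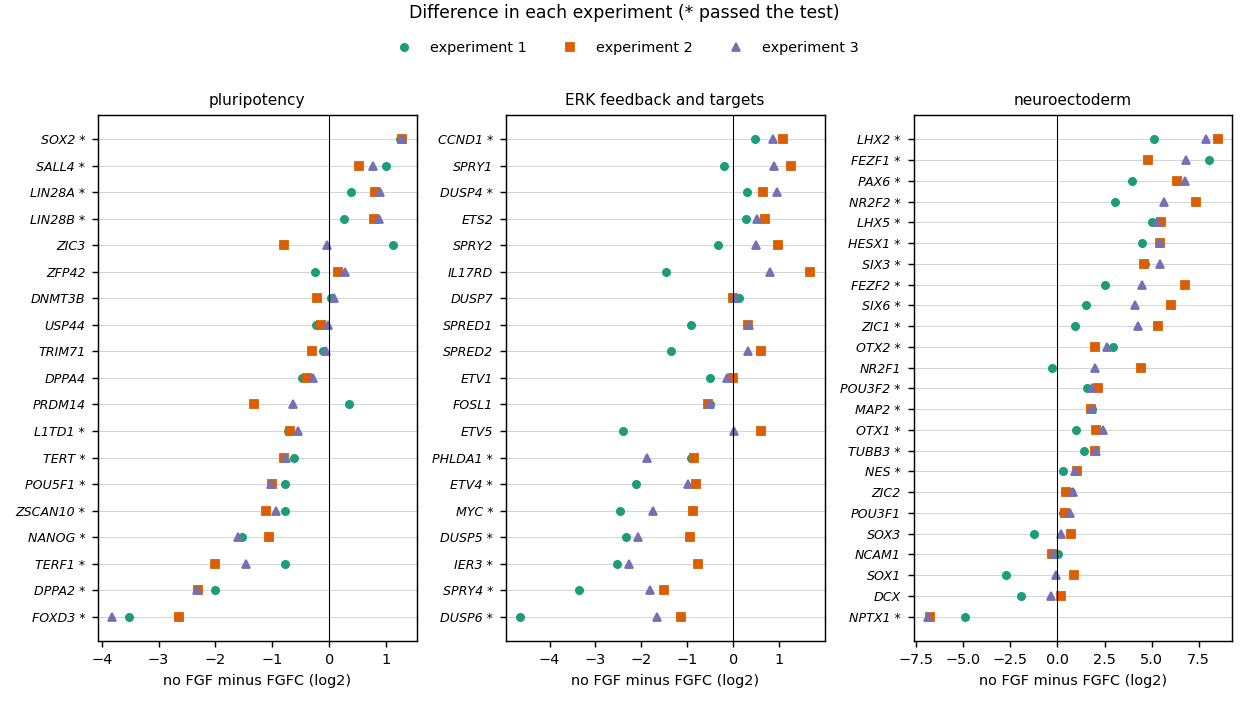
Difference between no FGF and FGFC (log2, horizontal axis) in each of the 3 experiments for every measured gene of the lists pluripotency (19), ERK feedback and targets (19) and neuroectoderm (24), sorted by the fitted difference, with an asterisk at genes that passed limma's test. The 3 points of SOX2, DPPA2 and MAP2 lie close together, while in the middle panel experiment 1 lies to the left for DUSP6 (-4.64), ETV5 (-2.40) and IL17RD (-1.47).

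The set of calls was smaller when an experiment was left out. The test passed 3840, 1480 and 974 probes without experiments 1, 2 and 3, and of the 4575 probes 3147, 1420 and 966 were among them. In all 3 of these fits 827 of the 4575 (18.1%) passed, 341 higher and 486 lower without FGF. Of the 118 genes named by the rule 105 passed, and 55 of these did so in every alternative run. They include the rises and falls named first, FOXD3, DPPA2, SOX2, GPC3, GDF3, HESX1, SIX3, LHX5, GATA3, KDR and CDH2, and of the ERK target genes 0.

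Set beside bFGF, the levels with FGFC did not pass as different. Between FGFC and bFGF 0 of 42405 probes passed limma's test, 1262 (2.98%) had an unadjusted p under 0.05, and 0 passed with normexp, quantile normalization or experiment number as a block, or without any 1 experiment. Between no FGF and bFGF 5400 probes (12.7%) passed, 5.54% higher and 7.19% lower without FGF, a comparison that shares the no FGF cultures. CDH6 and DLK1 differed by 8.75 and 5.37 from bFGF, beside 8.48 and 5.48 from FGFC, and NPTX1 by -4.83 beside -6.18. FGFC minus bFGF was 0.28 for CDH6 (95% confidence interval -0.35 to 0.91), 0.01 for FOXD3 (-0.63 to 0.66), -0.31 for NANOG (-0.86 to 0.23), 0.05 for SOX2 (-0.32 to 0.41) and -0.18 for DUSP6 (-1.47 to 1.11). These intervals do not show that both ligands act alike. The wide one of DUSP6 leaves room for a 2-fold change either way.

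The genes with the largest gap between both ligands, among those that passed between no FGF and FGFC and were well above background on every array of FGFC or of bFGF, were CLC, ACTA1 and SIX6 (lower with FGFC) and NPTX1, CUZD1 and PKDCC (higher with FGFC). FEZF1, with 3 FGFC and 0 bFGF arrays well above background, fell outside this limit, with FGFC minus bFGF of 1.66 (interval 0.42 to 2.89). CLC, a galectin, was at -1.61, -1.40 and -1.85 with bFGF, at -2.70, -3.79 and -3.71 with FGFC and at -4.91, -5.75 and -5.67 without FGF. FGFC minus bFGF was -1.78 (interval -2.46 to -1.10), and its level with FGFC thus lay between the other arms. ACTA1, skeletal muscle actin, was at 0.64, 0.43 and 0.26 with bFGF, at -0.25, -1.18 and -1.47 with FGFC and at 2.37, 2.90 and 2.91 without FGF, so that FGFC was on the far side of bFGF. CUZD1 was at 1.55, 2.18 and 1.84 with bFGF, at 2.19, 3.63 and 3.41 with FGFC and at -1.07, -0.79 and -0.27 without FGF. VTCN1 was not well above background on any bFGF array and on 4 of 6 FGFC arrays, with FGFC minus bFGF of 1.08 (interval 0.61 to 1.55). For CLC, ACTA1, CUZD1 and VTCN1 the unadjusted p was 0.000124, 0.000835, 0.00612 and 0.000359 in limma, and none passed the adjusted test.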

How the data were processed

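H1 ESCs in 4 groups of 3 cultures (pre-culture, bFGF, FGFC and no FGF) were measured on 24 one-colour arrays. The authors deposited the output of Agilent Feature Extraction 10.7.3.1, whose processed signal intensity is background-subtracted, linear and not scaled between arrays, as in the deposited table of the series, which holds the same intensities. The deposited median spot and background intensities were used for normexp. The deposited mark for signal well above background is a yes or no value from the scanner software, read here as other, and a probe was above background when at least 0.5 of its spots had the mark.

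After removal of control and outlier spots, signals below 1 were raised to 1. The log2 signals were averaged per probe and scaled by subtracting each array's 75th percentile, taken across its probes. Gene names came from RefSeq accessions (25715 of 42405 probes, 19720 symbols, 16690 probes without a symbol). Values missing on 1 array (53 probes) were taken from the other arrays of the culture. Summed list signals add probes of unlike response and are compared between arms only. The number of arrays limits the precision. Nothing in the labels says how separate the cultures of an experiment were, so that p-values measure the spread between these cultures.

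Duplicate arrays were averaged, and limma 3.58.1 in R 4.3.3 (lmFit and eBayes, Benjamini-Hochberg over 42405 probes, threshold 0.05) was fitted to all 12 cultures without a block. The FGFC and no FGF cultures of 1 experiment number shared a slide, and their deviations from the arm means had r = 0.260, 0.227 and 0.257 (other pairs -0.174 to -0.0329). Deviations within an arm cancel out, so that positive values for like numbers force negative ones among the other pairs. Experiment and slide cannot be told apart in these values. A gene with more than 1 probe was represented by its brightest one on average. Genes are named by a rule that takes CDH6, DLX5, DLK1 and NPTX1, the 12 largest rises and 12 largest falls that passed with the same sign in 3 experiments, up to 4 genes with the lowest adjusted p of each of 20 lists, all passing genes of 2 lists, and up to 3 per direction with the largest gap between FGFC and bFGF; list members beyond these are given with their values to show a list, and were chosen after the values were seen. The members, lists and rules were chosen with earlier results of these data known. A fold is given as "at least" where no array of the dim arm was marked as above background. The dim level is then the greater of the dim probe's signal and the smallest signal with that mark. The 95% confidence intervals use limma's moderated standard error. Promoters came from a RefSeq table (GRCh38.p14). Other steps used Python, pandas, numpy, scipy and matplotlib. Some items that the rule named are not reported here.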

Additional observations from a re-analysis of the deposited data

How the results depend on the processing

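Of the 118 named genes 0 reversed under any alternative run. The count of 4575 probes was 3832 to 6302 under normexp, quantile normalization, the percentile over spots, the floor, bright probes only, 1 array per culture, the deposited table, 3 arms, the slide as a random block and experiment number as a block (4928). It was 2553 with only the 2 arms in the fit, 2090 with the 2 arms and the replicate block, and 974 to 3840 without 1 experiment. These fits have fewer cultures. The excess of lower over higher probes (2575 and 2000) depended on the processing. Higher and lower probes numbered 2682 and 2647 under normexp, 2760 and 2872 under quantile normalization, and 1740 and 2933 with the percentile over spots. The block ended the calls of LIN28A and LIN28B and of no other named gene, and with it CDK2 passed. With only 2 arms, 22 of the 105 named calls were lost, and 38 with the block added. The 4019 probes changed 2-fold were 1534 under normexp, 2641 among bright probes and 4061 to 5508 without 1 experiment. Against bFGF, 5400 probes were 1272 to 3557 without 1 experiment, and 0 between FGFC and bFGF stayed 0. The share with the same sign in the experiment left out was 90.6% under normexp for experiment 1, and 96.2% and 98.4% under quantile normalization for experiments 2 and 3. The alternatives of the comparisons with bFGF, and the lists without 1 experiment or with the block, were added after the data had been seen. Without 1 experiment, lists had 3 to 10 passing genes for pluripotency, 1 to 9 for ERK targets, 0 to 1 for immediate-early genes, 1 to 3 for FGF receptors, 0 to 3 for FGF ligands, 2 to 5 for Nodal, 10 to 15 for BMP, 7 to 13 for WNT, 11 to 18 for neuroectoderm, 1 to 4 for neural crest, 3 to 4 for mesendoderm, 3 to 7 for cadherins, 0 to 1 for the cell cycle, 0 to 5 for cholesterol synthesis, 0 to 3 for glycolysis and 0 to 3 for collagens. FGF receptors had 7 under normexp and among bright probes, FGF ligands 8 under quantile normalization, keratins 2, 2, 1 and 2, and cell cycle genes 4, 5, 1 and 6, under normexp, quantile normalization, the percentile over spots and bright probes, and the cell cycle 2 with the block. The cause was not tested. Probes near background have less precise values.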
